A study of Mus musculus with 6 samples.

Results

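Amino acid and neurotransmitter transporters were followed in mouse embryonic stem (ES) cells that were made to express the transcription factor Sp5. The set comprised every row of the deposited gene table whose symbol was a numbered member of 1 of 7 solute carrier families, Slc1, Slc3, Slc6, Slc7, Slc36, Slc38 and Slc43. This gave 59 rows for 58 symbols among 36699 rows, because Slc38a9 had 2 rows. Symbols that end in a letter, such as those of Slc6a20 copies, were outside the pattern. The pattern uses symbols and no measured value.

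All cells were of the A2Lox.cre ES line carrying an inducible Flag-Sp5 transgene, differentiated in suspension as embryoid bodies and collected on day 3. The group with doxycycline (3 libraries, labelled 1, 3 and 4) received the drug for 24 hours from day 2 to switch on Flag-Sp5. The group without doxycycline (3 libraries, labelled 2, 3 and 4) did not. The cells had been kept in serum on primary mouse embryonic fibroblasts of the FVB strain, which were stripped away before embryoid bodies were made. The drug and transgene expression cannot be told apart by this design, and doxycycline without the transgene was not analysed here. The labels do not say whether libraries came from separate cultures, so the authors' p-values may measure technical spread only. Each gene had 1 value per group in FPKM (mapped fragments corrected for transcript length and library depth), combined by the authors from the libraries, with no error of its own. In what follows, "rose" and "fell" are said only of genes whose q in the authors' deposited table was under 0.05, always of cells with doxycycline relative to cells without, and q is the false discovery rate of the authors' Cuffdiff test.

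Amino acid transporters set which amino acids a cell can take up, exchange or release. Members of Slc7 form light chains that need a heavy chain of Slc3, or act alone as carriers of arginine and lysine. Slc38 and Slc1 members move glutamine, alanine, serine and glutamate with sodium, some Slc36 members use protons, and Slc43 members pass large neutral amino acids without a sodium gradient. Slc6 members clear transmitters such as GABA, glycine and serotonin from synapses and also carry taurine and creatine. Mouse ES cells are known for a strong dependence on threonine and glutamine.

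Sp5 stood at 126 FPKM with doxycycline and 0.769 FPKM without it, in the direction that the labels state. Of the ES and epiblast markers, all 7 were above 1 FPKM in both groups, 3 rose and 2 fell. Beside this and the marker counts that follow, 10.5% of all tested rows rose and 12.7% fell. At 1 FPKM or more these shares were 11.5% and 16.8%. No marker list was tested against other genes. Nanog was 2.54-fold higher, at 117 FPKM with doxycycline and 46.0 FPKM without it, and Utf1 was 2.64-fold lower. Bulk RNA cannot tell fewer cells of a type from less RNA per cell, which holds for every result below. Among markers of other cell types, 5 of 7 tested visceral endoderm genes fell and none rose. All 8 listed genes summed to 181 FPKM with doxycycline and 242 FPKM without it. Dab2, for which the authors' test gave no result, held 56.6 FPKM of the sum with doxycycline and 85.2 FPKM without it. For fibroblasts 2 of 11 rose and 4 fell, with sums over 12 genes of 19.2 and 20.0 FPKM with and without the drug. These sums hide changes both ways. Col1a1 rose to 4.43 FPKM with doxycycline, against 1.11 FPKM without it, and Thy1 fell to 6.42 FPKM against 9.34 FPKM. For neurons 1 of 5 rose and 2 fell, with sums over 6 genes of 52.5 and 48.2 FPKM with and without the drug. Stmn2, not called, held 44.9 FPKM of the neuron sum with doxycycline and 40.6 FPKM without it. No listed marker with a row was at 0 in both groups. The part of these cells in the transporter results was not tested.

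Of 43 tested member rows, 6 rose, 12 fell and 25 were not called, where 23.2% of all tested rows were called (10.5% higher and 12.7% lower). The called share of members was 41.9%. Where the higher group reached 1 FPKM, 3 of 29 members rose and 9 fell, where 28.3% of such rows in the whole table were called (11.5% higher and 16.8% lower). The other Slc genes in the table had 62 of 204 tested rows called, 30.4%. No test of the members against other genes was made. The median log2 difference of the tested members, with a pseudocount of 1 FPKM, was -0.0079, beside -0.015 for all tested rows. Members thus lay above and below no change in near equal number (21 and 22), and the calls in each direction sat on named genes. At least 2-fold changes with a call were seen in 4 of 43 tested members, where 5.76% of all tested rows had one. These were Slc7a3, Slc6a11, Slc6a13 and Slc6a4, and Slc7a3 alone of them exceeded 1 FPKM.

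**Figure D1:**
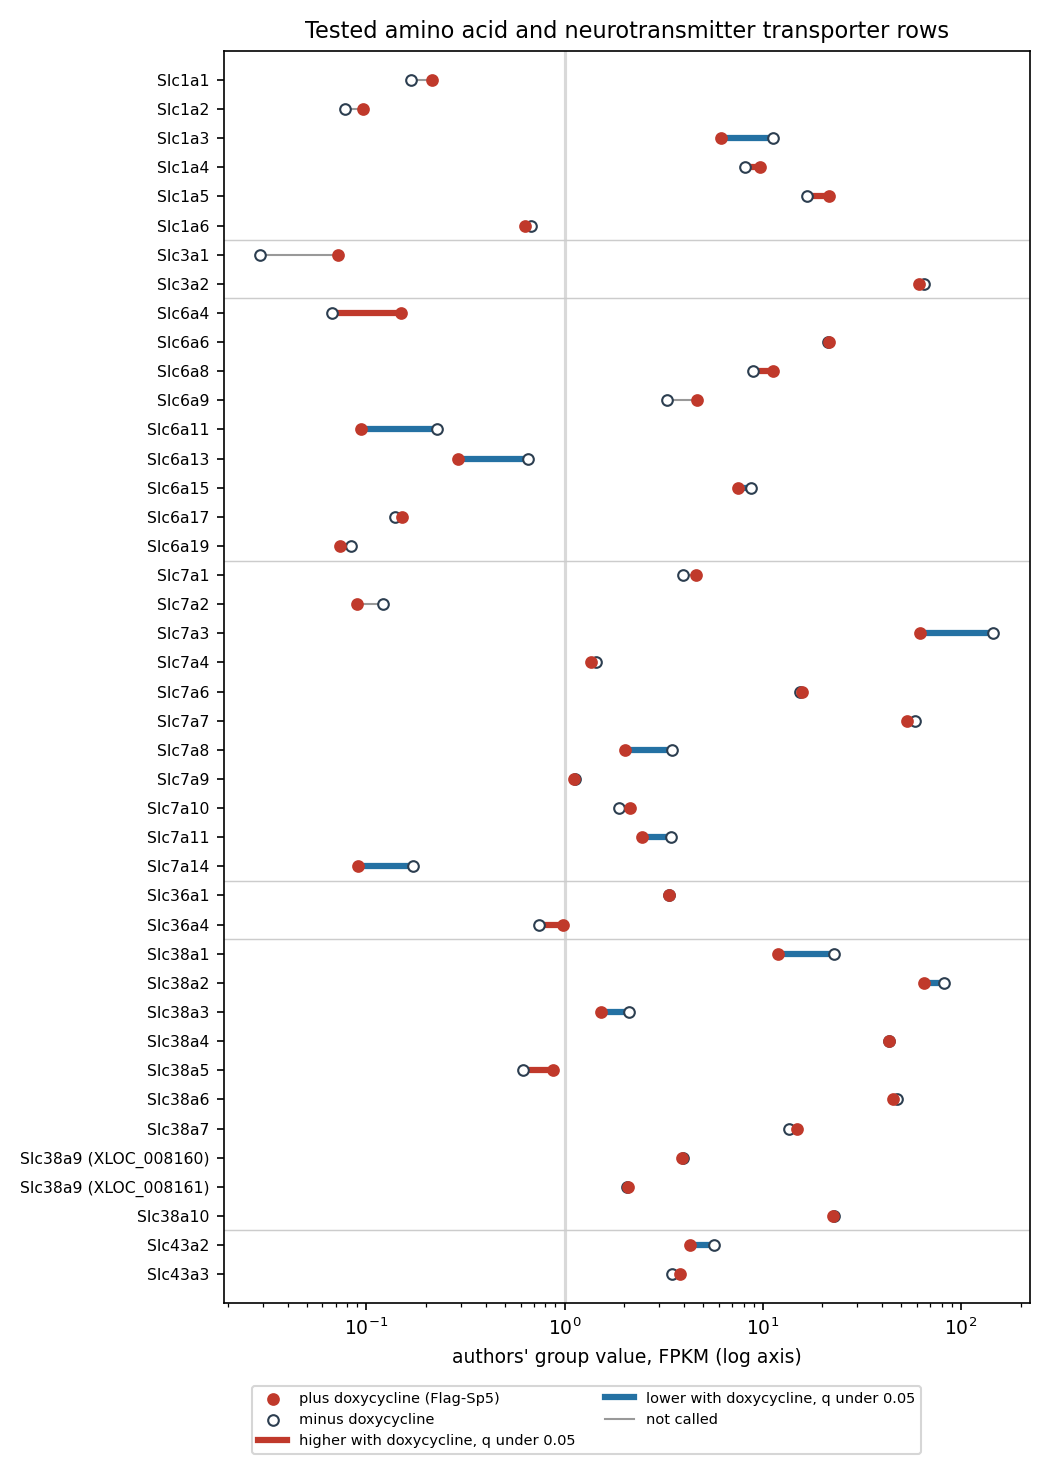
Group values of 42 of the 43 tested member rows, by family, in FPKM on a log axis. Filled points are cells with doxycycline and open points cells without it. Coloured bars join the values of rows whose q in the authors' deposited table was under 0.05. Slc7a3 has the widest gap among members above 1 FPKM, at 62.3 and 145 FPKM with and without doxycycline.

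The cationic amino acid carriers of Slc7 had the largest difference in summed FPKM among the transport systems compared, though not the largest ratio of sums. Slc7a3, a plasma membrane carrier of arginine and lysine, stood at 62.3 FPKM with doxycycline and 145 FPKM without it, a 2.33-fold fall (log2 fold change -1.22, q printed as 0 in the authors' deposited table). It lay on chromosome X, 98274549 to 98281359 of mm9, and shared its locus with no other row. Among all members it had the highest level without doxycycline and the second with it, where Slc38a2 was first. Slc7a1, the widely expressed carrier of the same amino acids, was at 4.60 and 3.97 FPKM with and without the drug and was not called (q = 0.117 in the authors' deposited table). Slc7a2, the third of these carriers, was at 0.0892 and 0.121 FPKM with and without it, also without a call. Slc7a3 therefore made up 93.0% of the summed FPKM of the 3 carriers with doxycycline and 97.3% without. The sum was 67.0 FPKM with doxycycline and 150 FPKM without it. Slc7a14, a related protein of internal membranes, fell too, at 0.0904 FPKM with doxycycline against 0.171 FPKM without (q = 0.00622 in the authors' deposited table), a very low level at a locus shared with another row. Slc7a4, whose transport activity is uncertain, was at 1.37 and 1.44 FPKM with and without the drug, not called.

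The heavy chain gene Slc3a2, whose product carries the Slc7 light chains to the cell surface, was at 61.2 FPKM with doxycycline and 65.4 FPKM without it. It was not called (q = 0.325 in the authors' deposited table). Of 5 light chain genes in the set that pair with it, 2 fell, none rose and 3 were not called. Rows at 1 FPKM or more, as these 5 were, had a called share of 28.3% over the whole table. No row of the set bore the symbol Slc7a5, a further light chain gene that pairs with Slc3a2, so it is not counted here. Slc7a8, an exchanger of neutral amino acids, fell to 2.01 FPKM with doxycycline, against 3.50 FPKM without it (1.74-fold, q = 7.72e-15 in the authors' deposited table). Slc7a11, the cystine and glutamate exchanger that supplies cysteine for glutathione, fell to 2.45 FPKM with doxycycline, against 3.46 FPKM without it (1.41-fold, q = 1.7e-09 in the authors' deposited table). Its promoter holds paired C/EBP-ATF elements, which are printed with the promoters of the Slc1 genes. The highest of these 5, Slc7a7, which exchanges cationic for neutral amino acids, was at 53.3 and 59.0 FPKM with and without doxycycline and was not called. It shared its locus with Oxa1l, so reads of this pair may not be separable. Slc7a6, its close relative in function, was at 15.8 and 15.4 FPKM with and without the drug, not called. Slc7a10 was at 2.13 and 1.89 FPKM with and without it, not called, at a locus shared with Lrp3. The 5 genes summed to 75.8 FPKM with doxycycline and 83.2 FPKM without. Slc3a1 and Slc7a9, the heavy and light chain of the kidney cystine carrier, were not called. Slc3a1 was at 0.0720 and 0.0292 FPKM and Slc7a9 at 1.11 and 1.13 FPKM, each given with and then without doxycycline.

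In Slc38, a family of sodium-coupled carriers of small neutral amino acids, 1 of 10 tested rows rose and 3 fell. Over all tested rows, 10.5% rose and 12.7% fell, and a family holds too few rows to be set against these shares. Slc38a1, a carrier of glutamine and alanine, fell to 12.0 FPKM with doxycycline, against 22.8 FPKM without it (1.91-fold, q printed as 0 in the authors' deposited table). Slc38a2, a carrier of the same system A that cells raise on amino acid shortage, fell less, to 64.9 FPKM with doxycycline against 82.3 FPKM without it (1.27-fold, q = 1.94e-06 in the authors' deposited table). Slc38a4, the third system A carrier and an imprinted gene in mouse, was at 43.3 FPKM in both groups and was not called. The difference between these changes was not tested. Slc38a1 and Slc38a2 are neighbours on chromosome 15, 96401849 to 96530129 of mm9, with 44.5 kb between them. The 3 system A carriers summed to 120 FPKM with doxycycline and 148 FPKM without it, and Slc38a1 made up 9.94% of the sum with doxycycline and 15.4% without. The system N carriers, which handle glutamine and histidine, moved in opposite directions at low level. Slc38a3 fell to 1.53 FPKM with doxycycline, against 2.12 FPKM without it (q = 0.00132 in the authors' deposited table), and Slc38a5 rose to 0.874 FPKM against 0.616 FPKM (q = 0.0370 in the authors' deposited table).

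The other tested Slc38 members were not called. Slc38a9, the lysosomal arginine sensor of the mTORC1 kinase complex, had rows at 3.92 and 2.09 FPKM with doxycycline, against 3.95 and 2.07 FPKM without it. Slc38a7, a lysosomal exit route for glutamine, was at 14.8 FPKM with doxycycline and 13.6 FPKM without. Slc38a6 was at 45.6 and 47.7 FPKM and Slc38a10 at 22.6 and 23.0 FPKM, with and without the drug in that order. Of the Slc36 carriers, Slc36a4 rose to 0.978 FPKM with doxycycline, against 0.743 FPKM without it (1.32-fold, q = 0.0210 in the authors' deposited table). Slc36a1, a member found on lysosomes, was at 3.36 FPKM in both groups, not called.

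**Figure D2:**
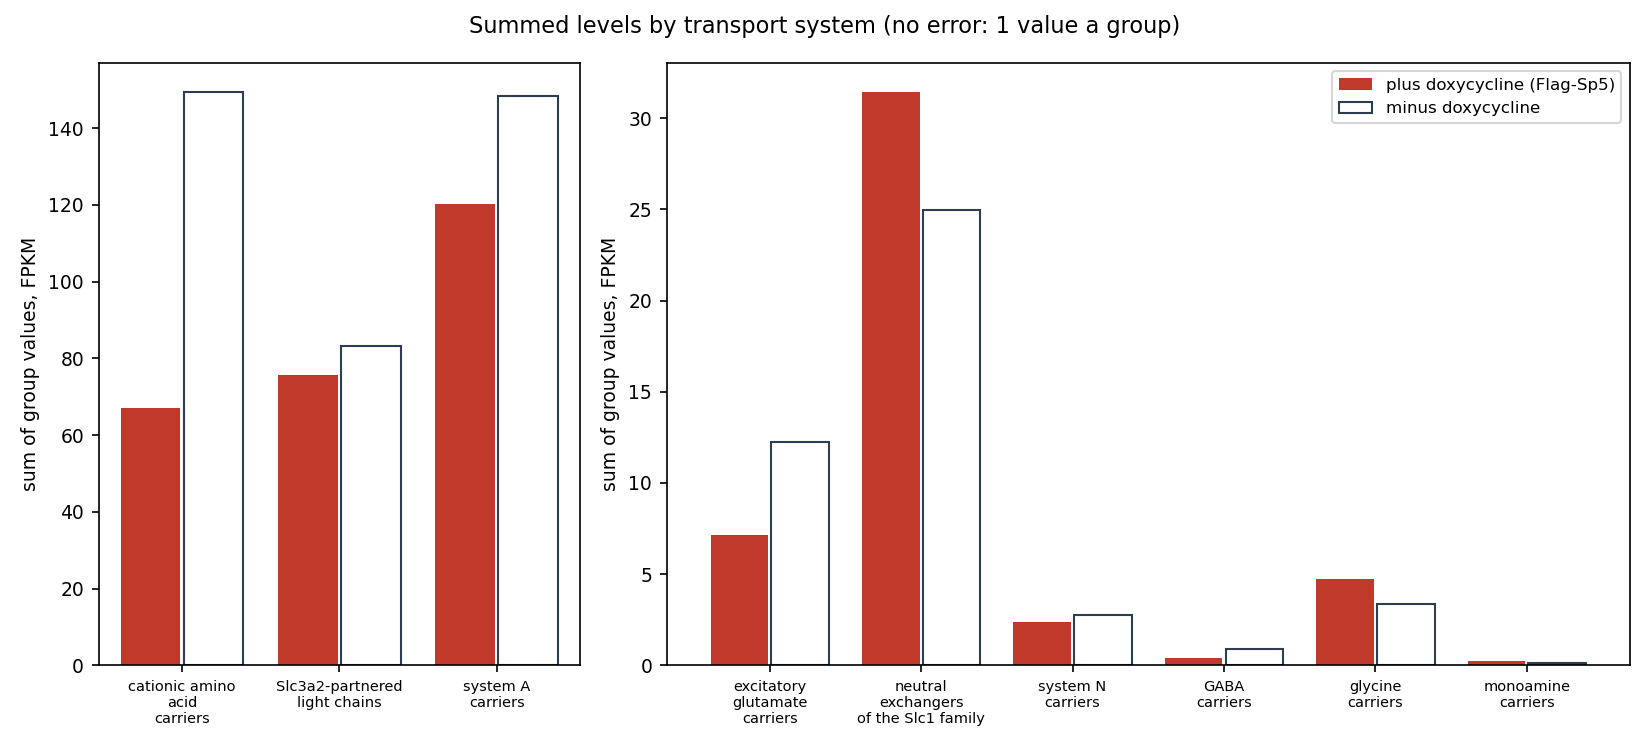
Summed FPKM of members that serve 1 transport system, for cells with doxycycline (filled) and without it (open), on axes that start at 0. The panels have different scales, and bars have no error because each group had 1 value per gene. The cationic carriers sum to 67.0 and 150 FPKM, and the neutral exchangers of Slc1 to 31.5 and 25.0 FPKM, with and without doxycycline.

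In Slc1, 2 of 6 tested rows rose and 1 fell, where 10.5% of all tested rows rose and 12.7% fell. Slc1a3, the glutamate carrier known from astrocytes and radial glia, fell to 6.19 FPKM with doxycycline, against 11.3 FPKM without it (1.83-fold, q = 1.06e-11 in the authors' deposited table). It was the only excitatory glutamate carrier gene above 1 FPKM. Slc1a1, Slc1a2 and Slc1a6 were tested without a call, between 0.0781 and 0.676 FPKM over both groups. The neutral exchangers Slc1a4 and Slc1a5, which swap alanine, serine, cysteine and, for Slc1a5, glutamine, both rose. Slc1a5 stood at 21.7 FPKM with doxycycline and 16.8 FPKM without it (1.29-fold, q = 0.00827 in the authors' deposited table). Slc1a4 stood at 9.74 FPKM with doxycycline and 8.13 FPKM without it (1.20-fold, q = 0.00380 in the authors' deposited table). Both changes were small in size. The pair summed to 31.5 FPKM with doxycycline and 25.0 FPKM without it, while the glutamate carriers summed to 7.16 FPKM with the drug and 12.3 FPKM without.

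The promoter stretches of 3 members are printed to show sequence next to called genes that had a window in the RefSeq table. Each is the 250 bases before the RefSeq start, in build GRCm38.p6, printed 5' to 3' on the strand of the gene. They were chosen after values were seen: Slc7a11 for its paired elements, and Slc1a3 and Slc1a4 as members of 1 family that moved in opposite directions. Capitals mark TGATGNAA, the C/EBP-ATF element through which ATF4 acts on amino acid genes, in Slc7a11, and GGGCGG, the GC box bound by Sp and Klf zinc-finger factors, in the others. Both strands were searched, matches of 1 motif could overlap, and the letters of the 2 motifs allow no overlap with each other.
Slc7a11, chr3:50443614-50443863, strand -: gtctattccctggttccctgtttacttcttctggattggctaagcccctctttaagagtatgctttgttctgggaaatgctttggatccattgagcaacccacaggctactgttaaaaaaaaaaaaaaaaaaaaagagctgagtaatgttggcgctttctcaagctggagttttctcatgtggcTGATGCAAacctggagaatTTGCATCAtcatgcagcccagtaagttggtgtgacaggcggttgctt
Slc1a3, chr15:8710808-8711057, strand -: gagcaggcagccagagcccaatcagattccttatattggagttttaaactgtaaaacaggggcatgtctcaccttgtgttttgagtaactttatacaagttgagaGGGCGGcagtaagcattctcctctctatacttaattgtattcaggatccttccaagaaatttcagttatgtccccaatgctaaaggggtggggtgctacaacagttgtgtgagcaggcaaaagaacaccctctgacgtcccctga
Slc1a4, chr11:20332714-20332963, strand -: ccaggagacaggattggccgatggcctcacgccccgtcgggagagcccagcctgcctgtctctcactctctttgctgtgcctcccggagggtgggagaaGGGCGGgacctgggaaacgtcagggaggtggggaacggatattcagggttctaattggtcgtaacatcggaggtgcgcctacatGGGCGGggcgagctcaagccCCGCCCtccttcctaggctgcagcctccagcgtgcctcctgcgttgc

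Slc7a11 held TGATGCAA from 66 to 59 bases before the start and the reverse complement TTGCATCA from 47 to 40 bases before it. Slc1a3 held 1 GC box and Slc1a4 held 3. Across all 32851 promoter windows of this length, 32.7% held a GC box and 3.45% the C/EBP-ATF element. Of 58 members, 41 had at least 1 window in the RefSeq table, and 27 of these had a GC box in at least 1 window. By window, 30 of 62 member windows (48.4%) held it. The called members Slc7a3, Slc38a1, Slc38a3, Slc6a15, Slc1a5 and Slc6a8 had no window and are in none of these counts. A GC box lay in 4 of 4 matched members that rose, 7 of 8 that fell and 16 of the 29 others. These others include members that were not tested, such as Slc1a7 and Slc38a11, as well as tested members without a call. Members with several windows had more chances to match. The C/EBP-ATF element was found in Slc7a11 and Slc7a7 among matched members. These matches describe letters in a window and not binding.

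In Slc6, 2 of 10 tested rows rose and 3 fell, where 10.5% of all tested rows rose and 12.7% fell. Members known from synapses were nearly all under 1 FPKM. The GABA carrier genes Slc6a11 and Slc6a13 fell. Slc6a11 was at 0.0936 FPKM with doxycycline and 0.227 FPKM without it (2.43-fold, q = 7.75e-06 in the authors' deposited table). Slc6a13 was at 0.288 FPKM with doxycycline and 0.657 FPKM without it (2.28-fold, q = 6.03e-06 in the authors' deposited table). The serotonin carrier gene Slc6a4 rose to 0.149 FPKM with doxycycline, against 0.0670 FPKM without it (2.22-fold, q = 0.0146 in the authors' deposited table). Each of these changes rests on levels far below 1 FPKM. Slc6a13 and Slc6a4 also shared their loci with other rows.

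Slc6 members of general metabolism were expressed higher. Slc6a8, the creatine carrier, rose to 11.3 FPKM with doxycycline, against 8.92 FPKM without it (1.26-fold, q = 0.0249 in the authors' deposited table). Slc6a15, a carrier of branched-chain amino acids and proline, fell to 7.47 FPKM with doxycycline, against 8.68 FPKM without it (1.16-fold, q = 0.0225 in the authors' deposited table). Slc6a6, the taurine carrier, was at 21.6 FPKM with doxycycline and 21.3 FPKM without it, not called. The glycine carrier Slc6a9 was at 4.68 FPKM with doxycycline and 3.30 FPKM without it. Its 1.42-fold difference was not called (q = 0.384 in the authors' deposited table), and its locus was shared with another row.

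In Slc43, which holds carriers of large neutral amino acids, 1 of 2 tested rows fell and none rose, beside 12.7% and 10.5% of all tested rows. Slc43a2 fell to 4.32 FPKM with doxycycline, against 5.69 FPKM without it (1.32-fold, q = 0.00265 in the authors' deposited table). Its locus was shared with another row. Slc43a1 was at 3.29 FPKM with doxycycline and 7.12 FPKM without it, but had status FAIL, meaning that the authors' test gave no result, so no change can be stated. Slc43a3, which is known for carrying purine bases and not amino acids, was at 3.81 and 3.48 FPKM with and without the drug, not called.

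The members not named so far were low. The 17 tested and uncalled rows under 5 FPKM in both groups, several of them named above, spanned 0.0292 to 4.68 FPKM, and include Slc6a17 and Slc6a19. A further 15 members had status NOTEST, given to rows too low to test, with no value above 0.0653 FPKM. These were Slc1a7, Slc36a2, Slc36a3, Slc38a8, Slc38a11, Slc6a2, Slc6a3, Slc6a5, Slc6a7, Slc6a12, Slc6a14, Slc6a18, Slc7a12, Slc7a13 and Slc7a15. They include the noradrenaline and dopamine carriers Slc6a2 and Slc6a3 and the synaptic glycine carrier Slc6a5. Slc7a12 was listed at 0 in both groups.

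**Figure D3:**
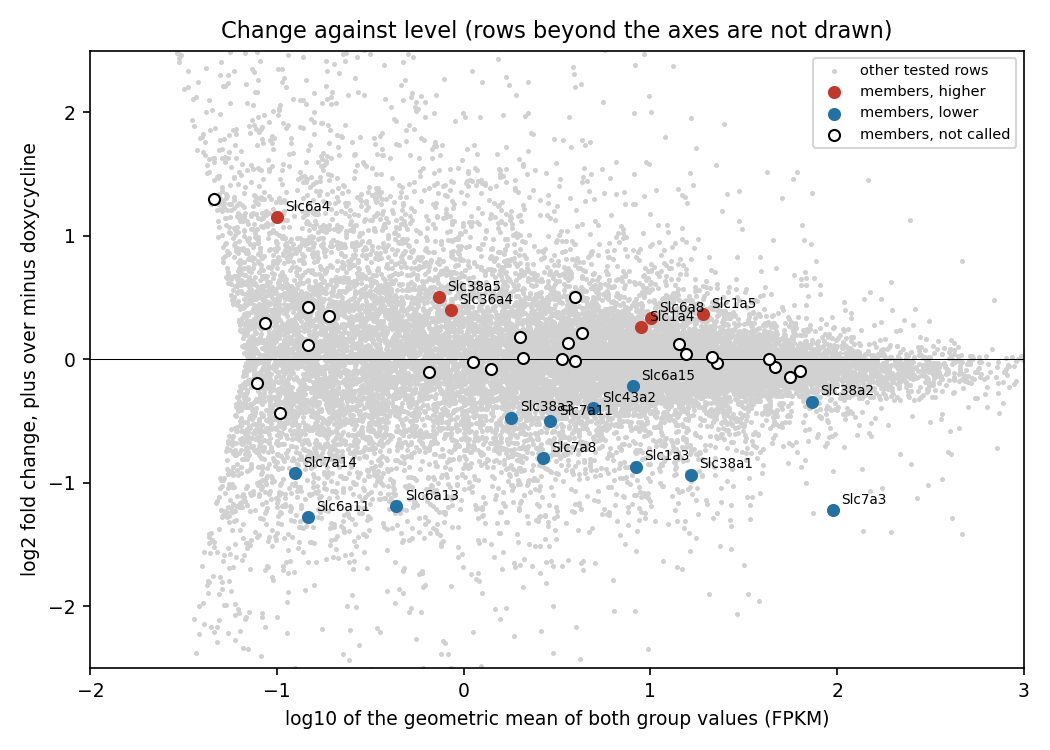
Log2 fold change (plus over minus doxycycline) against the geometric mean of both group values, on a log10 scale of FPKM, with the tested rows in grey. Members that rose are red, those that fell blue and those not called open. Slc7a3 lies at -1.22 at the high end of the level axis, and Slc6a11, Slc6a13 and Slc6a4 lie far to the left at low level.

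Across families, the summed FPKM of all 59 member rows was 519 with doxycycline and 644 without it. Slc7 took the largest part of that gap, with 145 FPKM with doxycycline and 236 FPKM without it. Slc38 summed to 212 FPKM with doxycycline and 242 FPKM without it. Slc1 and Slc6 had slightly larger sums with the drug, at 38.6 and 46.2 FPKM, against 37.2 and 43.7 FPKM without it. These sums have no error, and a few genes carry them. They leave out Slc7a5, which had no row in the set. At 10 FPKM or more in a group stood 14 members, of which 6 were called: Slc7a3, Slc38a1, Slc38a2 and Slc1a3 fell, and Slc1a5 and Slc6a8 rose. Over the whole table, 28.3% of tested rows at 1 FPKM or more were called. The share of all rows at 10 FPKM or more was not worked out, so this count is not compared with other genes.

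Genes that act with these transporters were read from 6 lists. Of 27 tested genes of the ATF4 list, which holds the amino acid stress factor ATF4 and genes it activates, 10 rose and none fell. All were at 1 FPKM or more, where 11.5% of all rows rose and 16.8% fell. Asns, the asparagine synthetase, was at 78.9 FPKM with doxycycline and 51.9 FPKM without it (1.52-fold). Sesn2, a leucine sensor, was at 35.3 FPKM with doxycycline and 23.7 FPKM without it (1.49-fold). Vldlr (1.56-fold) and Nupr1 (1.48-fold) also rose, all 4 with q of at most 0.00723 in the authors' deposited table. Phgdh, Psat1 and Psph, the enzymes of serine synthesis, rose too, by 1.32, 1.30 and 1.23-fold (chosen after their values were seen). Atf4 itself, also named after its values were seen, was at 117 FPKM with doxycycline and 129 FPKM without it, not called. Transporter genes known as ATF4 targets went both ways, as given above. Slc7a11 and Slc38a2 fell, Slc1a4 and Slc1a5 rose, and Slc3a2 and Slc7a1 were not called. These too were picked after their values were seen. The median log2 fold change of the tested ATF4 list was 0.093, beside -0.029 for all tested rows.

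Of 17 tested genes of glutathione and cystine use, 5 rose and 7 fell, all 12 at 1 FPKM or more, where 28.3% of all rows were called. Gpx4, the glutathione peroxidase that removes lipid peroxides, rose to 617 FPKM with doxycycline, against 355 FPKM without it (1.74-fold). Gss, glutathione synthetase, rose 1.45-fold. Nqo1, a quinone reductase, fell to 6.03 FPKM with doxycycline, against 13.1 FPKM without it (2.17-fold), and Ggt7 fell 2.07-fold. Ggt7 and Gss shared a locus, so reads of this pair may not be separable. The other called members, named after their values were seen, were Nfe2l2, Hmox1, Txnrd1, Gclm and Gclc, which fell between 1.14 and 1.42-fold, and Gpx1, Cbs and Chac1, which rose between 1.21 and 1.26-fold. Gsr, glutathione reductase, was at 43.3 and 41.7 FPKM with and without doxycycline, not called. For the called genes q did not exceed 0.0347 in the authors' deposited table.

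Amino acid use was covered by 26 tested genes, of which 6 rose and 4 fell, and 37.5% of those at 1 FPKM or more were called, beside 28.3% of all such rows. Tdh, the threonine dehydrogenase characteristic of mouse ES cells, rose to 92.8 FPKM with doxycycline, against 47.5 FPKM without it (1.95-fold, q printed as 0 in the authors' deposited table). Gcat, the next enzyme of threonine breakdown, fell to 37.5 FPKM against 48.5 FPKM, with and without the drug in that order. Amt, of the glycine cleavage system, fell 1.35-fold. Among genes of amino acid sensing by mTORC1, all at 1 FPKM or more, 5 of 29 tested rose and 7 fell, a called share of 41.4%. Gatsl3, which encodes an arginine sensor, rose 1.66-fold, and Sesn2 rose as given. Rragd, a GTPase that recruits mTORC1 to lysosomes, fell to 26.2 FPKM with doxycycline, against 40.8 FPKM without it (1.56-fold), and Gatsl2 fell 1.55-fold.

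Among carriers outside the 7 families, 4 of 13 tested rose and 1 fell, where 23.2% of all tested rows were called. At 1 FPKM or more, 2 of 7 of these carriers were called (28.6%), near the 28.3% of all such rows. Slc16a10, a carrier of aromatic amino acids, rose to 2.72 FPKM with doxycycline, against 1.37 FPKM without it (1.98-fold). Sfxn1, the mitochondrial serine carrier, rose 1.21-fold, to 44.2 FPKM with doxycycline against 36.6 FPKM without it. Of genes for transmitter synthesis and breakdown, 4 of 13 tested rose and 2 fell, a called share of 46.2% beside the same 23.2%. At 1 FPKM or more, 4 of 7 of these genes were called, 2 in each direction. Maoa and Maob, the monoamine oxidases, fell 2.10-fold and 2.32-fold, and Maoa stood at 10.1 FPKM with doxycycline and 21.3 FPKM without it. Abat, which degrades GABA, rose 2.72-fold to 1.41 FPKM with doxycycline, against 0.517 FPKM without it, and Aldh5a1, the next enzyme, rose 1.62-fold. Gad1, which makes GABA, and Tph2, which makes serotonin, rose at levels below 1 FPKM (chosen after their values were seen). Gad1 was at 0.553 and 0.0988 FPKM and Tph2 at 0.299 and 0.0774 FPKM, with and without the drug in that order. The Gad1 locus was shared with another row. It starts at 70327997 of chromosome 2 (mm9), and the row of the induced Sp5 ends at 70315786. Whether this bears on the Gad1 value was not tested.

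**Figure D4:**
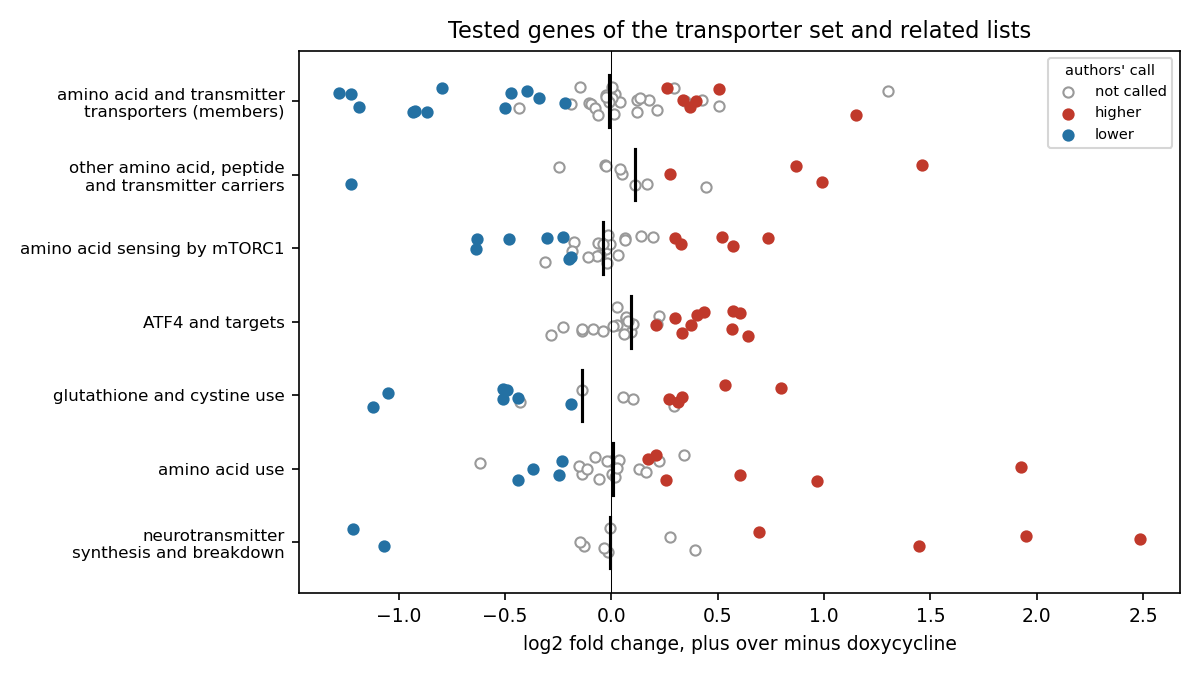
Log2 fold change (plus over minus doxycycline) of each tested gene in the transporter set and in 6 related lists, with the vertical bar at each list's median. Filled points passed q under 0.05 (authors' deposited table), red higher and blue lower, and vertical scatter within a list carries no meaning. All 10 called genes of the ATF4 list lie above 0, whereas the transporter set has 6 called rows above 0 and 12 below.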

How the data were processed

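Poly(A)-selected RNA was sequenced, per the labels' protocols, with a TruSeq kit for which no strand marking is mentioned. The submitters' processing notes name build mm9 and the tools Cuffdiff, Cufflinks 2.0.2, Picard, Bowtie and TopHat2 2.0.8. Not given in the sources used here: gene annotation, scaling, filters. The deposited table held FPKM for each group, combined over libraries by the authors, so depth is unknown and values carry no counting interval. The deposited p-values and q-values are the authors' Cuffdiff results, and their log2 fold change equalled the log2 ratio of the group values to within 1.31e-05. Benjamini-Hochberg adjustment of the 18537 tested rows (status OK) gave the deposited q to within 1.79e-06. A call needs q under 0.05 in that fit across all genes.

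Folds are ratios of group values with no pseudocount. Starts were read as 0-based and are written from 1: spans then equalled those of GENCODE vM21 genes in 10176 of 18266 compared by length, against 286 otherwise. Of 59 member rows, 16 shared a locus with another row and may share reads. Called ones among them were Slc43a2, Slc6a4, Slc6a13 and Slc7a14. Such rows also occur in the related lists. Called genes named there that shared a locus were Sesn2, Psat1, Ggt7, Gss, Nfe2l2 and Gclm. Tdh, Rragd, Slc16a10, Abat, Aldh5a1 and Gad1 shared one too. Every called member is named, uncalled members where a group reached 5 FPKM (others are named for context), untested members by status (1 tested, uncalled member is not reported here), and of each related list at most the 4 called genes at 1 FPKM or more with the largest folds, except where another choice is stated. The members and lists were chosen with earlier results of these data known. Python 3.11.15, numpy 2.4.6, pandas 2.3.3 and matplotlib 3.10.9 were used, and the adjustment was tested on simulated data.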

Additional observations from a re-analysis of the deposited data

How the results depend on the processing

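The alternatives act on the authors' deposited values and q, so they test which members pass a rule and not the direction of any member. The number that rose depended most on the settings: 2 with q under 0.01, 1 with a fold of at least 1.5 or of at least 2, and 3 with rows at 1 FPKM or more adjusted again, beside 6 as reported. The number that fell was 7 with a fold of at least 1.5 and 3 with a fold of at least 2, beside 12. Over all genes, 1117 rose and 967 fell with a fold of at least 1.5, and 656 and 412 with a fold of at least 2, beside 1949 and 2357. With q under 0.01 the calls of Slc6a15, Slc6a4, Slc36a4, Slc38a5 and Slc6a8 were lost. The median log2 difference of the members was -0.0097 with a pseudocount of 0.1 FPKM, -0.0029 with 5 FPKM, -0.013 at 1 FPKM or more, 0.00090 without rows that share a locus and 0.031 after centring, so it has no stable sign. Centring moved values by 0.044 on the log2 scale, less than any called change, and does not recompute q, so calls could not change under it. The counts with q under 0.01 or a larger fold moved because the rule was stricter. Those at 1 FPKM or more moved because low rows were left out. All 20 named members that stayed in kept their call or their lack of one. The cause of the moves of the median was not tested. Leaving out libraries was not run, because the table holds 1 value per group. No paired analysis was possible because the table holds no values per library. For the same reason the spread between libraries cannot be seen, and levels under 1 FPKM rest on few fragments of unknown number.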
